A study of Mus musculus with 6 samples.

Results

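The genes described here encode the ESCRT machinery, the tetraspanins and other proteins of extracellular vesicles (EVs). They were chosen by gene symbol, with a fixed pattern of names, and the pattern matched 78 of the 20624 genes in the deposited table. The cells were of the mDCT15 line, a mouse line derived from the distal convoluted tubule, and total RNA of 6 samples was depleted of ribosomal RNA and sequenced. Of these samples, 3 were wild type and 3 were Pkd1-/- cells, made by CRISPR-Cas9 editing of *Pkd1*, the gene that encodes polycystin-1. All were grown in the same medium with fetal bovine serum, with no treatment, and the edited cells are named Pkd1-/- in the sample titles and knockdown in the genotype field. The study asked how *Pkd1* bears on EV release, and here the question is at what level the genes of vesicle formation were counted in these cells. Levels are the authors' mean normalized count over all 6 samples, in which both genotypes are pooled. Fold changes and p-values of the authors' own comparison were not used, so that no value below compares Pkd1-/- with wild type cells. The spread between samples is not known from a pooled mean, hence no difference between genes was tested, and values close to each other are not ranked as different.

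EVs arise by 2 routes. Exosomes form as vesicles inside the multivesicular endosome, which then fuses with the plasma membrane, while microvesicles bud from the plasma membrane itself. The ESCRT complexes act in sequence on the endosome. ESCRT-0 binds ubiquitinated cargo, ESCRT-I and ESCRT-II deform the membrane, ESCRT-III polymerizes and cuts the neck of the vesicle, and the ATPase VPS4 takes the polymer apart. Tetraspanins are proteins with 4 membrane passes that gather partners into membrane domains, and CD9, CD63 and CD81 are the usual marker proteins of EVs. Annexins bind membranes in the presence of calcium, flotillins scaffold lipid domains, SNAREs fuse membranes, and the synaptotagmin-like proteins tie vesicles that carry RAB27 to the fusion site.

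To compare genes of unequal size, the mean count was divided by the length of all annotated exons of the gene in kilobases (kb). Levels per kb are on this scale unless the canonical transcript is named, and orders of genes given below hold for this length only. The members were counted above most genes. Their median level was 155.0 per kb, against 28.6 per kb for the 20122 genes with a gene model, and 64 of the 78 members lay above that median of all genes. Of the members, 75 are protein coding, whereas all genes here include noncoding genes and pseudogenes, and a median of protein-coding genes alone was not computed. Against the median of only those genes with a mean count of at least 10, 51 members lay above. A mean count of at least 100 was reached by 65 members (83.3%), against 50.3% of all genes. In the upper 10% of genes by level per kb stood 16 members (20.5%). The members made up 0.378% of the genes and 0.595% of the summed mean counts, and the 10 highest held 49.7% of the members' summed level per kb. Only 7 members had a mean count under 10. Of the 81 genes listed for the roles, 72 were found, and the others have no level here.

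**Figure D1:**
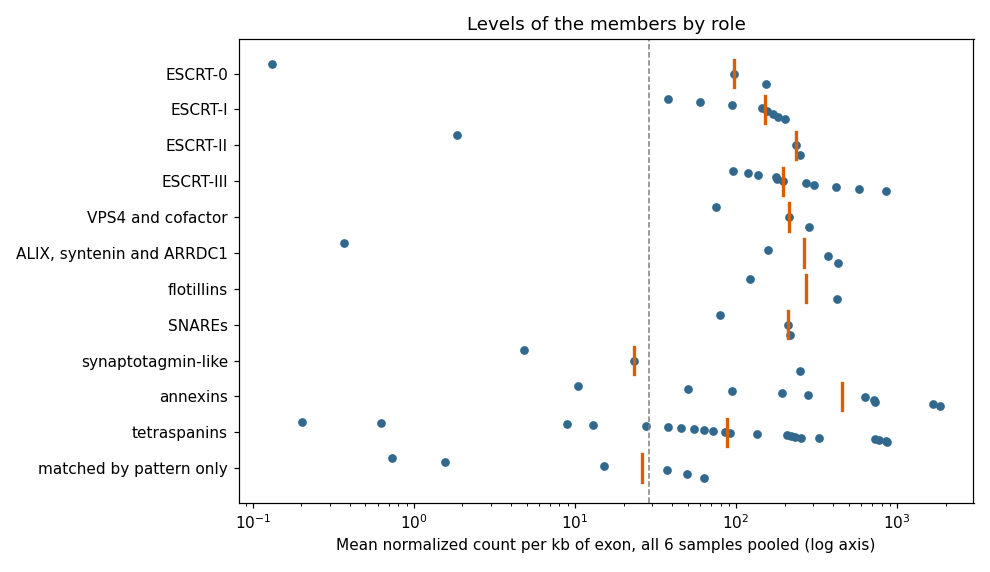
Level of each of the 78 members as mean normalized count per kb of exon on a log axis, by role; each point is a gene, the orange bar is the median of the role and the dashed line the median of all genes, 28.6 per kb. Annexins reach the highest levels, and single genes of ESCRT-0, ESCRT-II, the ALIX and syntenin group and the tetraspanins lie far below the rest of their role.

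The upstream sequences of 5 members are shown first, since they are the member with the highest level per kb of all exons, another high annexin, the ESCRT gene with the highest level on that scale and the syntenin paralogs, of which one is hardly counted. Each run is the 250 bases before the start of the canonical transcript, 5′ to 3′ on the strand of the gene, read from GRCm39, with every CG dinucleotide in capitals. None of these windows overlaps an annotated exon. The window of *Anxa1* lies at chr19:20368375-20368624 on the minus strand. That of *Anxa6* lies at chr11:54924306-54924555 on the minus strand, that of *Chmp4b* at chr2:154498556-154498805 on the plus strand, that of *Sdcbp* at chr4:6365297-6365546 on the plus strand and that of *Sdcbp2* at chr2:151414277-151414526 on the plus strand.
Anxa1: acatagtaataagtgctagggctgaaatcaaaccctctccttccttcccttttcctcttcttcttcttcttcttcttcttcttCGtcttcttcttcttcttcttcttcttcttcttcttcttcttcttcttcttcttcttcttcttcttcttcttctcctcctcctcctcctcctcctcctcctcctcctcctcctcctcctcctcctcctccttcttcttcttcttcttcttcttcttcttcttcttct
Anxa6: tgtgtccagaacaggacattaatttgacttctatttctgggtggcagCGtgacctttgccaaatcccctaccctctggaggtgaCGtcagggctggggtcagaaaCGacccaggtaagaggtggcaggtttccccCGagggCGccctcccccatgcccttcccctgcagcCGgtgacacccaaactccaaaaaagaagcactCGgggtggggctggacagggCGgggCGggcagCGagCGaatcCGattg
Chmp4b: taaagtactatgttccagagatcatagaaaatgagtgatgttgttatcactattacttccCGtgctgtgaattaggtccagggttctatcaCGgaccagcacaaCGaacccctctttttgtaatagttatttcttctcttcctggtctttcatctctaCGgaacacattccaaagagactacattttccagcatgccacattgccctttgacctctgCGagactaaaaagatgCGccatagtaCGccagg
Sdcbp: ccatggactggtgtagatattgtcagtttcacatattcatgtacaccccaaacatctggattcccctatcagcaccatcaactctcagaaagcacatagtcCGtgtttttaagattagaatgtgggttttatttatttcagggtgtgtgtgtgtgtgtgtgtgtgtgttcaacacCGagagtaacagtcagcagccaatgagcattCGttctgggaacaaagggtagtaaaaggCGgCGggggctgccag
Sdcbp2: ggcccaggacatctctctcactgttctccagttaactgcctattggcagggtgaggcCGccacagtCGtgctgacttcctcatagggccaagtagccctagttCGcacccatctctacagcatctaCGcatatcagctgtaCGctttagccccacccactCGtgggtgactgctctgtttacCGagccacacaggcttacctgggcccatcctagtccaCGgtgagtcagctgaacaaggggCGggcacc

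These windows hold 1 CG for *Anxa1*, 12 for *Anxa6*, 7 for *Chmp4b*, 5 for *Sdcbp* and 9 for *Sdcbp2*. Of these 5, the gene with the fewest CG had the highest level per kb of all exons, and *Sdcbp2*, which is hardly counted, had more of them than *Sdcbp*. The 5 genes were chosen partly by level, so no relation between CG and level is drawn from them.

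ESCRT-0 is built from HGS, also known as HRS, and STAM or STAM2. *Stam2* had a mean count of 996.6 (154.2 per kb) and *Stam* one of 837.2 (97.0 per kb). *Hgs* had a mean count of 0.648, which is 0.132 per kb and the lowest level of all 78 members. The partner subunits of the same complex were therefore both counted above the median of all genes while *Hgs* was at the floor of the table. *Hgs* lies on chromosome 11 with 22 exons in the canonical transcript, and in the annotation used here 0% of its exon bases are shared with another gene. The annotation release with which the authors counted was not used here, and its part in the value was not tested.

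ESCRT-I has the subunits TSG101, VPS28, a VPS37 protein and MVB12, and all 8 listed genes were in the table with a mean count of at least 100. *Vps28* had the highest level per kb (202.4, mean count 637.8), followed by *Vps37b* (182.7), *Tsg101* (170.2) and *Mvb12a* (155.9). Per kb of the canonical transcript *Vps28* was also highest (662.3), but *Vps37b* (200.5) stood below *Tsg101* (535.8) and *Vps37c* (247.9). Of the VPS37 genes, which encode alternative subunits, *Vps37a* had the highest mean count with 1219, and its level was 94.1 per kb, whereas *Vps37c* stood at 145.0 per kb. *Vps37d* was lowest of the 4, with a mean count of 112.7 and 59.5 per kb. Of the exon bases of *Vps37b*, 52.7% are also exon of *Hip1r* (mean count 1511) on the opposite strand. *Mvb12b* had nearly the same mean count as *Mvb12a*, 704.6 against 686.6, but a level of only 37.9 per kb, with 18571 bases of exon annotated for it. Per kb of the canonical transcript *Mvb12b* stood at 135.8 and *Mvb12a* at 629.3. The ratio of *Mvb12a* to *Mvb12b* was 4.11 per kb of all exons and 4.63 per kb of the canonical transcript.

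ESCRT-II is a complex of SNF8, VPS25 and VPS36. *Vps36* (mean count 1218, 250.8 per kb) and *Snf8* (mean count 725.2, 236.6 per kb) stood close to each other on this scale, but per kb of the canonical transcript they stood at 328.5 for *Vps36* and 722.3 for *Snf8*, so that no order between them is given. *Snf8* shares 34.3% of its exon bases with *Ube2z* (mean count 3409) on the opposite strand. *Vps25*, which encodes the subunit that binds ESCRT-III, had a mean count of 6.74 and 1.84 per kb. As with ESCRT-0, one subunit of the complex was thus nearly uncounted beside its partners. In *Vps25*, 31.0% of the exon bases are shared on the same strand with *Ramp2*, whose own mean count was 24.6, and the part of this overlap in the low count was not tested.

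All 11 ESCRT-III genes in the table lay above the median of all genes, from 95.2 per kb for *Chmp4c* to 853.6 per kb for *Chmp4b*. *Chmp4b* encodes the main polymer of the neck, and its level was 8.96 times that of its paralog *Chmp4c* per kb of all exons and 6.19 times per kb of the canonical transcript. *Chmp5* (576.0 per kb) and *Chmp2b* (414.7 per kb) followed, and per kb of the canonical transcript *Chmp5* stood at 1058 and *Chmp4b* at 1054. Of the genes whose products cap the polymer and recruit VPS4, *Chmp2a* had a mean count of 864.0 and *Chmp2b* one of 832.3, and which of them is higher depended on the length, with *Chmp2b* at 3.03 times *Chmp2a* per kb of all exons and 0.819 times per kb of the canonical transcript. *Chmp2a* shares 46.3% of its exon bases with *Trim28* (mean count 7446) on the opposite strand. *Ist1*, which encodes a regulator of VPS4 with the fold of ESCRT-III, had the highest mean count of the role, 2067, at 271.5 per kb. *Chmp1a* (304.9 per kb), *Chmp1b* (195.5), *Chmp3* (178.9), *Chmp6* (176.2), *Chmp2a* (137.0) and *Chmp7* (118.7) filled the range between. *Vps4a* and *Vps4b*, which encode the ATPase, stood at 282.3 and 212.0 per kb. Their ratio was 1.33 per kb of all exons and 0.948 per kb of the canonical transcript, so that no order between them is given. Of the exon bases of *Vps4a*, 41.5% are shared with *Cog8* (mean count 696.6) on the opposite strand. *Vta1*, the cofactor of VPS4, was at 74.8 per kb. In all, 26 of the 28 ESCRT and VPS4 genes had a mean count of at least 100, the lowest of them being *Vps37d*, and the exceptions were *Hgs* and *Vps25*.

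**Figure D2:**
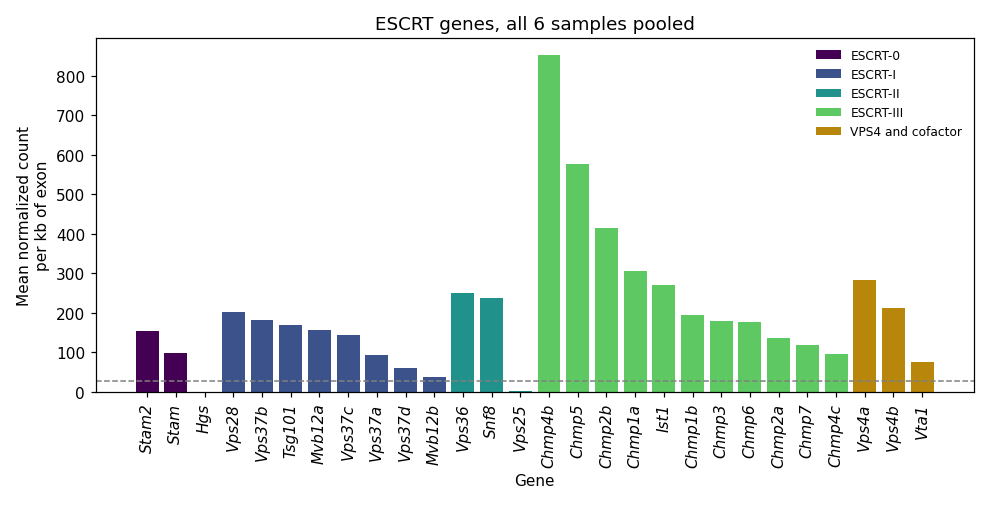
Mean normalized count per kb of exon of the 28 ESCRT and VPS4 genes, coloured by complex, with the median of all genes as a dashed line at 28.6. Chmp4b is highest with 853.6, and Hgs (0.132) and Vps25 (1.84) have no visible bar.

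The proteins ALIX and syntenin form a side route into the vesicle, in which syntenin ties syndecans to ALIX and ALIX to ESCRT-III. *Sdcbp*, the gene of syntenin, had a mean count of 3425 (427.9 per kb) and *Pdcd6ip*, the gene of ALIX, one of 3953 (370.2 per kb). Both lay in the upper 10% of genes. *Sdcbp2*, the gene of the second syntenin, had a mean count of 2.78 (0.370 per kb), so that nearly all counts of the syntenin genes came from *Sdcbp*. *Arrdc1*, whose product recruits TSG101 to the plasma membrane and drives budding there, stood at 157.5 per kb with a mean count of 422.4. The syndecan genes are outside the name pattern. *Sdc4* was counted at 2801 per kb, *Sdc1* at 301.8, *Sdc2* at 266.1 and *Sdc3* at 18.4 per kb.

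Of the tetraspanins, 22 were in the table and 18 had a mean count of at least 100. *Tspan31* (869.7 per kb), *Cd81* (849.7), *Cd63* (771.9) and *Cd9* (729.3) formed an upper group. The next, *Cd151*, which encodes a partner of laminin-binding integrins, stood at 328.4 per kb. By mean count the order was *Cd63* with 3693, *Cd81* with 3201, *Tspan31* with 2119, *Tspan5* with 1904, *Tspan3* with 1791, *Cd151* with 1707, *Tspan9* with 1608 and *Cd9* with 1550. Per kb of the canonical transcript *Cd63* (2672) and *Cd81* (2073) came before *Tspan31* (1303) and *Cd9* (1220), so that the same 4 genes led while their order changed with the length. For *Tspan31*, 26.5% of the exon bases are also exon of *Cdk4* on the opposite strand, a cell cycle kinase gene with a mean count of 6977. The part of this overlap in the count of *Tspan31* was not tested. The 5 genes with CD names, *Cd9*, *Cd63*, *Cd81*, *Cd82* and *Cd151*, held 54.3% of the summed tetraspanin level per kb. *Cd82* was the lowest of them with 84.8 per kb.

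The other tetraspanins formed a gradient. *Tspan9* (253.0 per kb), *Tspan4* (231.0), *Tspan3* (220.2), *Tspan6* (207.6) and *Tspan5* (134.6) were in the upper part. *Tspan5*, *Tspan14* (91.2), *Tspan15* (45.4), *Tspan17* (63.4) and *Tspan33* (72.0) belong to the TspanC8 subfamily, which guides the protease ADAM10 to the cell surface. Its partner gene *Adam10* was at 504.4 per kb. *Tspan12* (54.5), a component of Norrin signaling, *Tspan2* (37.6) and *Tspan13* (27.5) were lower, and *Tspan7* and *Tspan18* had mean counts of 91.9 and 83.1. *Tspan8* and *Tspan32* had mean counts of 1.19 and 1.27, near the floor of the table. Of the other tetraspanin genes fixed in the lists, *Rom1* had a mean count of 45.3 and *Upk1a* one of 11.2. Among partners of the tetraspanins, *Itgb1* stood at 2945 per kb, *Itga3* at 796.4, *Ptgfrn* at 303.3, *Igsf8* at 198.4 and *Itga6* at 53.8 per kb.

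**Figure D3:**
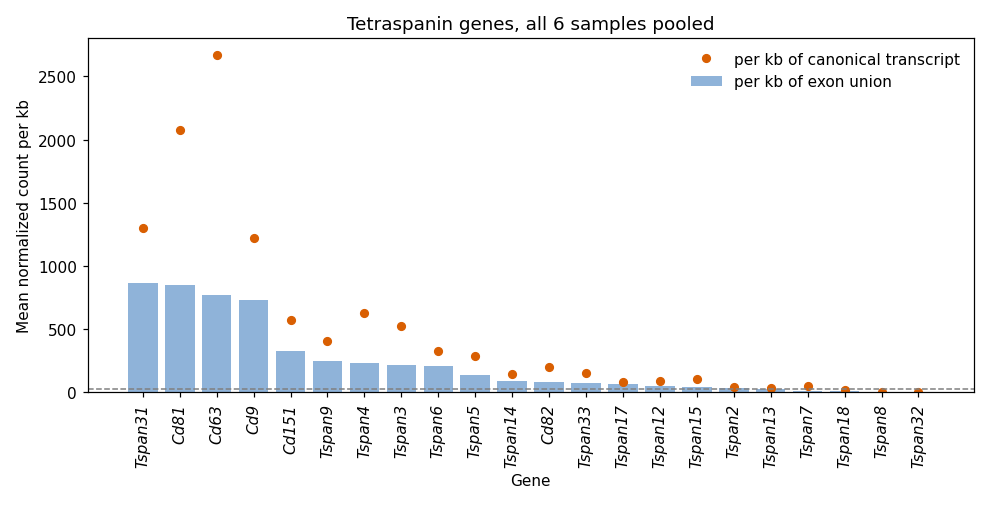
Level of the 22 tetraspanin genes per kb of all exons (bars) and per kb of the canonical transcript (orange points), with the median of all genes per kb of exon as a dashed line. Tspan31, Cd81, Cd63 and Cd9 lie between 729.3 and 869.7 per kb of exon, and the points change their order.

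The annexins had the highest levels of all roles, with a median of 453.1 per kb over 10 genes and 32.0% of the members' summed level. *Anxa1* had a mean count of 5771 and 1846 per kb, *Anxa2* a mean count of 8401 and 1670 per kb. Together they held 56.5% of the annexin level. *Anxa2* had the highest mean count of all members, and per kb of the canonical transcript it stood above *Anxa1*, at 1.75 times its level. The product of *Anxa2* acts as a tetramer with S100A10, whose gene *S100a10* stood at 399.7 per kb. *Anxa5* (730.5 per kb), the gene of the protein used to stain exposed phosphatidylserine, *Anxa3* (718.0) and *Anxa6* (627.8) followed. The ratio of *Anxa1* to *Anxa5* was 2.53 per kb of all exons but 0.927 per kb of the canonical transcript, and *Anxa5* had a mean count of 6192. *Anxa4* (278.5), *Anxa7* (193.4) and *Anxa11* (94.0) were lower, and *Anxa8* and *Anxa9* had mean counts of 94.5 and 47.2. The partner genes *S100a6* (2613 per kb) and *S100a11* (1020 per kb) were also among the higher genes of the table.

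*Flot2* stood at 420.6 per kb and *Flot1* at 122.0 per kb, a ratio of 3.45. For *Flot1*, 29.8% of the exon bases are shared with *Tubb5* (mean count 33370) on the opposite strand. Of the SNAREs that bring endosomes to the plasma membrane, *Vamp3* had a mean count of 1397 (217.3 per kb), *Vamp8* one of 617.5 (210.2 per kb) and *Snap23* one of 577.9 (79.5 per kb). *Vamp7*, the other SNARE gene listed for this role, was not found. *Vamp3* and *Vamp8* were thus within a ratio of 1.03 per kb of each other. Of the 10 listed SNARE partners all lay above the median of all genes, from *Stx3* with 32.6 to *Stx4a* with 202.8 per kb.

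*Sytl2* had the highest level of the synaptotagmin-like genes, with a mean count of 3485 (249.7 per kb), against 128.4 for *Sytl4* (23.3 per kb) and 14.3 for *Sytl1* (4.79 per kb). These proteins bind RAB27. *Rab27a*, with a mean count of 213.8, and *Rab27b*, with 144.6, stood at 45.1 and 12.1 per kb, below *Sytl2*. *Rab35* (425.3 per kb), *Rab11b* (182.8) and *Rab11a* (141.7), the small GTPases of the recycling endosome, were higher than both RAB27 genes. *Unc13d*, a RAB27 effector of secretory granules, had a mean count of 9.12, and *Smpd3*, which encodes a neutral sphingomyelinase of the ESCRT-independent route, one of 18.8.

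**Figure D4:**
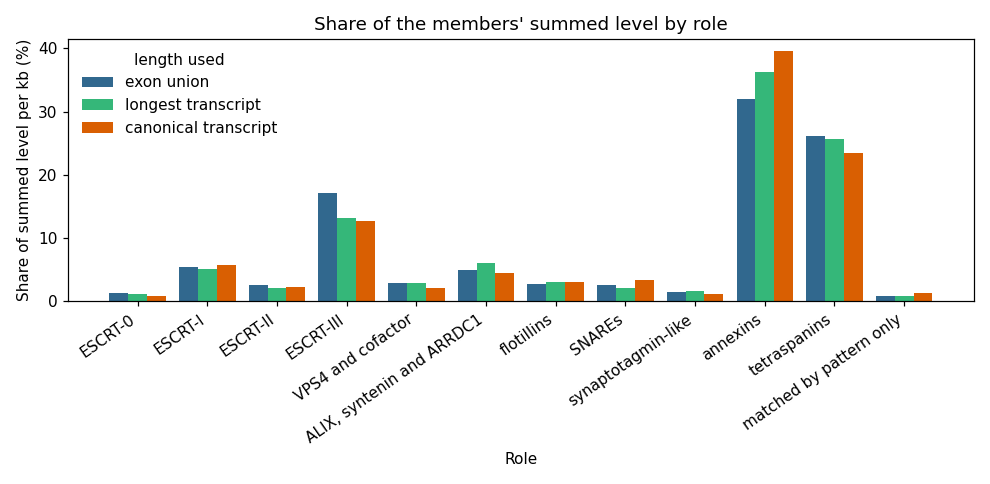
Share of the members' summed level held by each role, in percent, with the mean count divided by the exon union, by the longest transcript or by the canonical transcript. Annexins (32.0% by exon union) and tetraspanins (26.2%) hold the highest shares under each length, and ESCRT-III holds 17.1% by exon union.

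The other genes of the pathway, taken from fixed lists of ESCRT partners, docking and release factors, syndecans, further tetraspanins, tetraspanin partners, cargo, S100 proteins and SNAREs, were read in the same way. Of 61 listed, 57 were in the table and 50 of these lay above the median of all genes. All 9 ESCRT partners did, with *Nedd4*, a ubiquitin ligase that marks cargo, at 1564 per kb, *Litaf* at 606.5, *Ptpn23* at 353.1, *Usp8*, a deubiquitinase of the endosome, at 216.3 and *Ubap1*, an ESCRT-I subunit, at 208.0 per kb. Of 6 listed cargo genes, *Lamp1* (1881 per kb), *Hspa8* (1116), *Cav1* (471.7), *Mfge8* (418.0) and *Lamp2* (380.2) were well counted, and *Icam1* had a mean count of 2.62.

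The name pattern also took in 6 genes that are no ESCRT, tetraspanin or vesicle protein genes by these lists. *Hgsnat* (mean count 703.1) encodes a lysosomal acetyltransferase and begins with the letters of *Hgs* only. *Stambp* (518.4) and *Stambpl1* (275.8) encode deubiquitinases, of which the first binds STAM. *Stamos* (5.56) and *Tspan32os* (0.722) are noncoding genes on the opposite strand of *Stam* and *Tspan32*, and *Tsg101-ps* (17.6) is a processed pseudogene of *Tsg101* on chromosome 15. Counts of the antisense genes and of the pseudogene cannot be separated with certainty from those of their partners. *Tsg101* itself stood at 11.3 times the level of its pseudogene per kb of all exons, 17.6 times per kb of the longest transcript and 35.6 times per kb of the canonical one.

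The start sites were compared by their CG dinucleotides, in 300 bases from 250 before to 50 after the start of the canonical transcript. A CG reads the same on both strands. These are annotated starts, and whether the cells used them was not tested. The median was 16.0 in the members and 13 in all 20122 genes, and 48 members (61.5%) had at least 13, against 51.2% of all genes. Among the 65 members with a mean count of at least 100 the share was 66.2%, against 74.0% of all genes with such a mean. Of the 7 members with a mean under 10, 3 had at least 13 CG, namely *Hgs* with 26, *Vps25* with 21 and the noncoding *Stamos* with 18. By contrast, *Tspan8* had 5 and *Tspan32* had 3, and of all genes with a mean under 10 only 22.1% reached 13. The well counted *Tspan9* (26) and *Pdcd6ip* (21) had the same numbers as *Hgs* and *Vps25*, and a link between CG and level was not tested. Some well counted members had few, with 1 for *Anxa1*, 3 for *Sytl2* and 4 for *Cd63*, and others had many, with 32 for *Chmp5* and 20 for *Cd9*. The letters TATAAA occurred on either strand of the window in 6 members (7.69%) and in 11.3% of all genes.

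**Figure D5:**
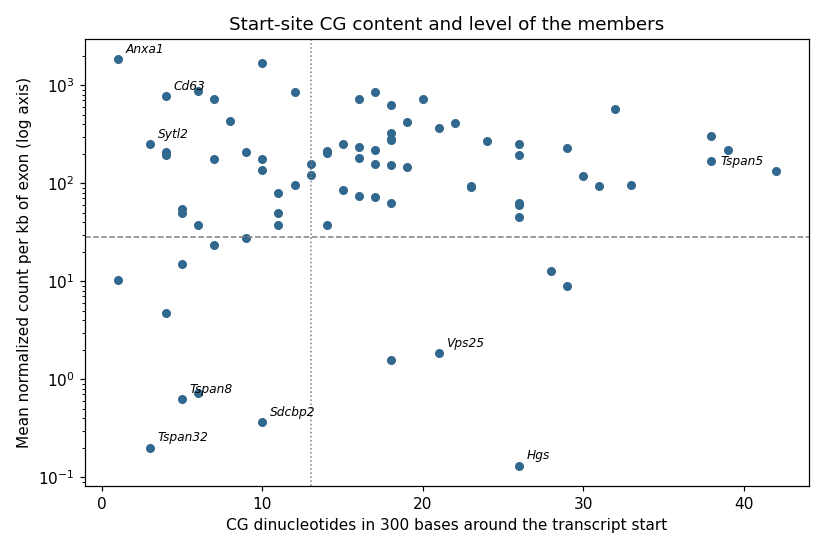
CG dinucleotides in 300 bases around the start of the canonical transcript against mean normalized count per kb of exon (log axis) for the 78 members; the dotted line marks the median of 13 CG in all genes and the dashed line the median level of 28.6 per kb. Hgs and Vps25 lie at the bottom with 26 and 21 CG, and Anxa1 at the top with 1.

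For the cells as a whole, the mean counts add up to 16746088, and the depth of each sample is not known. *Pkd1* had a pooled mean of 3175, which does not check the genotype of any sample. Of 6 listed markers of the distal convoluted tubule only *Trpm6*, with a mean count of 29.6, and *Klhl3*, with 5.70, were found. The sodium chloride cotransporter gene *Slc12a3* was looked for and had no value. Likewise, the listed thick ascending limb markers *Slc12a1*, *Umod* and *Cldn16* had no value. Of 5 listed epithelial markers 3 were found, and *Cdh1* and *Krt18* had no value. *Cdh16* (1125 per kb) and *Epcam* (44.6 per kb) lay above the median of all genes, and *Krt8* had a mean count of 0.980. Of 7 listed markers of principal and connecting tubule cells 4 were found, and *Aqp2*, *Scnn1b* and *Kcnj1* had no value. *Hsd11b2* (65.8 per kb) lay above that median, and *Scnn1a* (13.1 per kb), *Aqp3* (1.06 per kb) and *Scnn1g* (0.193 per kb) lay below it. Of the 4 proximal tubule markers, *Lrp2* (528.4 per kb) lay above it, while *Cubn* stood at 11.3 per kb and *Slc5a2* and *Slc34a1* had mean counts of 2.77 and 2.04. Of the 6 listed fibroblast markers, *Vim*, a mesenchymal gene that many cultured cells express, stood at 3672 per kb and *Col1a1* at 30.6 per kb, with a mean count of 200.6. The other fibroblast markers, *Col1a2*, *Col3a1*, *Pdgfra* and *Pdgfrb*, had mean counts of 2.71, 2.44, 4.12 and 4.48. The leukocyte gene *Ptprc* (5.37) and the endothelial gene *Pecam1* (4.68) were near the floor, and the listed *Cdh5* had no value.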

How the data were processed

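RNA of 3 wild type and 3 Pkd1-/- mDCT15 samples was sequenced with paired-end reads. After trimming with Trim Galore 0.4.5, the authors aligned the reads to GRCm39 with STAR 2.7.5a. Gene counts were made by the authors with HTSeq 0.11.0 at default parameters on Ensembl release 105 and normalized in DESeq2 1.22.0. The signal used here is the mean normalized count in the authors' deposited table, which averages all 6 samples. Its 5 columns of the authors' comparison (fold change, standard error, Wald statistic, p-value and adjusted p-value) were not used. It has 0 columns of per-sample values, so the depth of each sample is unknown, and no precision, interval or test could be given. The planned count test was not run for the same reason.

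Identifiers were matched to GENCODE M39 on GRCm39, a later release than the authors' own, for 20122 (97.6%) of the genes and all 78 members. The mean count was divided by the union of annotated exons. Each gene's exon bases that also belong to another gene were counted on either strand, since the strand setting could not be checked on reads. At least 20% of the exon bases were shared in 15 members, and the text gives the overlap for only some of them. No symbol was repeated among the members. Start sites were those of the canonical transcripts. The supplied promoter table, on an older build, was not used. Members and lists were chosen with earlier results of these data known. The text names every role's 3 highest members, all members with a mean under 10 and genes of the fixed lists; further members are given for completeness. The percentile was checked on shuffled ranks, and the windows and letter search on a toy sequence. Python 3.11.15, numpy 2.4.6, pandas 2.3.3 and matplotlib 3.10.9 were used.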

Additional observations from a re-analysis of the deposited data

How the results depend on the processing

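With the main length, the longest and the canonical transcript, 64 members lay above the median of all genes, and 65 did without division by length. Against the median of only those genes with a mean count of at least 10, 51 members lay above. The canonical transcript and the wider window around the start were added after seeing the data. A minimum mean of 1000 left 30 members, and one of 10 left 71, against 65 at 100. Without the genes matched by name only, 72 members remained, and with the wider window 47 had at least the median number of CG, against 48. The share of the summed level per kb with the longest transcript was 1.12% for ESCRT-0, 5.05% for ESCRT-I, 2.17% for ESCRT-II, 13.2% for ESCRT-III, 2.97% for VPS4, 6.06% for ALIX, syntenin and ARRDC1, 3.04% for flotillins, 2.07% for SNAREs, 1.59% for synaptotagmin-like genes, 36.3% for annexins, 25.6% for tetraspanins and 0.816% for genes matched by name only. With the canonical transcript the same shares were 0.772%, 5.71%, 2.26%, 12.7%, 2.18%, 4.50%, 3.12%, 3.43%, 1.11%, 39.5%, 23.4% and 1.34%. Annexins, tetraspanins and ESCRT-III held the highest shares with each length. Of the 10 highest members, 9 were shared with each other length, but of the 5 highest only 3 with the longest and 2 with the canonical transcript. No paired analysis was possible because only a mean over all samples was used. For the same reason replicates could not be left out in turn.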
